A study of Mus musculus with 36 samples.

Results

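CpG methylation was followed along the 4 Hox clusters in mouse knee cartilage after surgery that loosens the medial meniscus (DMM), a model of osteoarthritis in which a meniscal ligament is cut and the cartilage degrades over weeks. The members were the CpG cytosines inside 4 windows of GRCm38, chr6:52150000-52265000 for Hoxa, chr11:96190000-96370000 for Hoxb, chr15:102920000-103040000 for Hoxc and chr2:74665000-74770000 for Hoxd. A cytosine was kept where at least 10 reads covered it in all 6 oxidized libraries of a week, and no methylation level entered the choice. At 4 weeks 4492 of 1444973 covered cytosines (0.311%) were members, with 1243 in Hoxa, 1110 in Hoxb, 864 in Hoxc and 1275 in Hoxd. At 12 weeks 3995 of 1273121 were members, with 1115, 961, 768 and 1151 in the same order, and 3819 were covered at both weeks.

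All mice were male C57BL/6J operated on the right knee at 12 weeks of age, with no transgene or deletion in any group. The right knee is called DMM, the unoperated left knee of operated mice is called control, and cartilage was taken 4 or 12 weeks after surgery. Each library held cartilage pooled from 3 knees, and 3 DNA libraries were made per limb and week. Reduced representation oxidative bisulfite sequencing read each DNA library in a bisulfite form (BS, which reads 5-methylcytosine and 5-hydroxymethylcytosine together) and in an oxidized form (oxBS, which reads 5-methylcytosine, 5mC, alone), so that 5-hydroxymethylcytosine (5hmC) is the BS percent minus the oxBS percent. RNA-seq was run on 3 pools per limb and week from other mice. Surgery always went with the right side, so the effect of surgery and that of body side cannot be told apart, and each library is a replicate only of its pool of 3 knees.

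Hox genes encode homeodomain transcription factors that give cells their position along the body axis and, in the limb, along the axis from hip to toe. The order of the genes on the chromosome follows the order of the body regions that they pattern, from group 1 genes at the head end to group 13 genes at the tail end and the digits. Hindlimb mesenchyme uses mainly the group 9 to 13 genes of Hoxa, Hoxc and Hoxd, and adult connective tissue cells keep a part of that pattern. The clusters are dense in CpG islands and are classical Polycomb targets, and CpG methylation there is known to differ between tissues of different position.

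Mean coverage of the Hox cytosines was 24.5 to 143 reads in the oxBS libraries of 4 weeks and 32.2 to 91.5 in those of 12 weeks, and 20.2 to 123 and 20.2 to 50.6 in the BS libraries. The mitochondrial genome, which carries almost no CpG methylation, read 0.530 to 0.742% methylated at 4 weeks and 0.284 to 0.364% at 12 weeks, which bounds the share of unconverted cytosines. In the RNA libraries (27706547 to 62737656 counts each) the summed level of 6 chondrocyte genes (Acan, Col2a1, Comp, Sox9, Cnmd, Prg4) was 7443 to 21862 CPM (counts scaled to a common library total), and none of them was at 0. Cnmd, a cartilage matrix gene, was lower in every DMM library at 4 weeks (62.5 to 94.95 CPM in control and 41.2 to 45.04 in DMM), and Comp, another, was higher in every DMM library at 12 weeks (1018 to 1866 and 2281 to 3291 CPM). RNA of other cell types was present as well. The sum of 3 erythroid genes was 4195 to 14502 CPM and that of 3 neutrophil and marrow genes 2981 to 15999.7 CPM, which overlaps the range of the chondrocyte genes, with no gene apart between the limbs at either week, and 2 endothelial genes summed to 34.6 to 87.6 CPM. The sum of 4 skeletal muscle genes at 4 weeks was 3121 to 9313 CPM in control and 199 to 1706 CPM in DMM, with 4 of 4 genes lower in every DMM library. At 12 weeks it overlapped between the limbs (39.6 to 7932 and 216 to 4994 CPM). The sum of 3 osteoblast genes was higher in DMM at both weeks (2905 to 3952 against 5784 to 7089 CPM, and 1386 to 2173 against 2547 to 3714 CPM), with most of the sum from 1 of the 3 genes, Ibsp, whose limbs did not overlap. Bglap and Sp7 overlapped at both weeks, and the mean in DMM was the lower one for Sp7 at 4 weeks and for Bglap at 12 weeks. RNA and DNA came from different mice, and the part of these cells in the differences between limbs was not tested. In pooled tissue, a change in the share of a cell type and a change of methylation within cells cannot be told apart.

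6 stretches of the clusters carry the description that follows, and their sequences (RefSeq, GRCm38.p6, plus strand) are given first, in lower case with the covered CpG sites in capitals. The first 4 hold regions with large differences between limbs without overlap, 1 per cluster. The last pair, the most methylated region of the 4 clusters and the least methylated one of Hoxd, show the extremes of the scale.
Hoxa, intron of Hoxa3, chr6:52185382-52185602: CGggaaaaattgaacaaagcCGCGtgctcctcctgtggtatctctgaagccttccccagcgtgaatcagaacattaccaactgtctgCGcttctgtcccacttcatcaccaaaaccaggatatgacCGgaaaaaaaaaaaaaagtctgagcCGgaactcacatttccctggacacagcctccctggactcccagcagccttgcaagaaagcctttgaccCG
Hoxb, exon of Hoxb3, chr11:96344508-96344690: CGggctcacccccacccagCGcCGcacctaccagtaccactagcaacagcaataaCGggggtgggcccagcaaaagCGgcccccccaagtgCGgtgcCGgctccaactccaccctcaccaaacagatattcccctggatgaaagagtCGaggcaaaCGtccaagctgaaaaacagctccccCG
Hoxc, between genes, chr15:102949729-102949817: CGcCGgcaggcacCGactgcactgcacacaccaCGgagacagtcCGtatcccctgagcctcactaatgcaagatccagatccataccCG
Hoxd, exon of Hoxd3, chr2:74747044-74747091: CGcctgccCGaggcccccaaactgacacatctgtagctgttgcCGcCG
Most methylated, intron of Gm11539 in Hoxb, chr11:96248793-96248831: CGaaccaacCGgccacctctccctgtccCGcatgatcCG
Least methylated in Hoxd, exon of Haglr, chr2:74749670-74749733: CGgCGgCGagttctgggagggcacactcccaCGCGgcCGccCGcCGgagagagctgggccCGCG

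In control cartilage at 4 weeks most Hox cytosines carried almost no 5mC, and the rest were partly methylated. Cytosines under 10% made up 63.6% of those in Hoxa, 71.1% in Hoxb, 69.3% in Hoxc and 70.9% in Hoxd, beside 60.7% of all covered cytosines. Full methylation was rare. Levels of 80% or more were seen at 2.33% of Hoxa, 0.991% of Hoxb, 0.157% of Hoxd and 0 of 864 Hoxc cytosines, beside 17.3% of all. The partly methylated class between them held 34.0% of Hoxa, 27.9% of Hoxb, 30.7% of Hoxc and 28.9% of Hoxd cytosines, beside 22.0% of all.

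The partly methylated cytosines stood in blocks, and each cluster had its own arrangement (distances are from the start site of the group 13 gene, toward group 1). In Hoxa the stretch from 20 to 50 kb, which holds the starts of Hoxa10, Hoxa9 and Hoxa7, averaged 1.38%, 1.46% and 1.38% 5mC in its 10-kb bins in control at 4 weeks. The next bin, with the starts of Hoxa6 and Hoxa5, averaged 55.3% ± 2.24 (SD, n = 3). Between 70 and 100 kb, over the long introns of Hoxa3 transcripts and up to Hoxa2, the bins averaged 52.6% ± 10.6, 46.5% ± 5.75 and 44.8% ± 1.55. Hoxa thus held an almost unmethylated block from Hoxa10 to Hoxa7 and a partly methylated block of anterior genes, with Hoxa4 in a bin of 11.9% inside the latter. On the group 13 side the bins at 0 to 10 and 10 to 20 kb, the latter with the start of Hoxa11, averaged 10.8% and 7.57%.

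Hoxb was lower on the whole. Its bins with 20 or more cytosines ran from 2.76% to 24.9%. The highest mean was that of the bin at 130 to 140 kb, inside Hoxb3, with a wide spread (35.9%, 12.7% and 26.2%, SD 11.6). In control replicate 2 the bin at 60 to 70 kb (19.3%) lay above it. The few cytosines at 10 to 20 and 30 to 40 kb, in the long gap between Hoxb13 and Hoxb9, averaged 64.0% (3 cytosines) and 78.7% (11 cytosines). Hoxc climbed toward its group 4 end, from 2.81% at 60 to 70 kb (start of Hoxc8) to 28.4% at 100 to 110 kb and 36.1% ± 9.64 at 110 to 120 kb, with a second rise to 20.98% at 20 to 30 kb between Hoxc12 and Hoxc11. Hoxd stayed between 0.971% and 8.15% from its group 13 end to the start of Hoxd3, held 32.7% ± 5.35, 32.9% ± 6.56 and 19.9% ± 3.69 over the Hoxd4 and Hoxd3 bodies at 50 to 80 kb, and fell back to 4.98% and 3.39% toward Hoxd1.

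**Figure D1:**
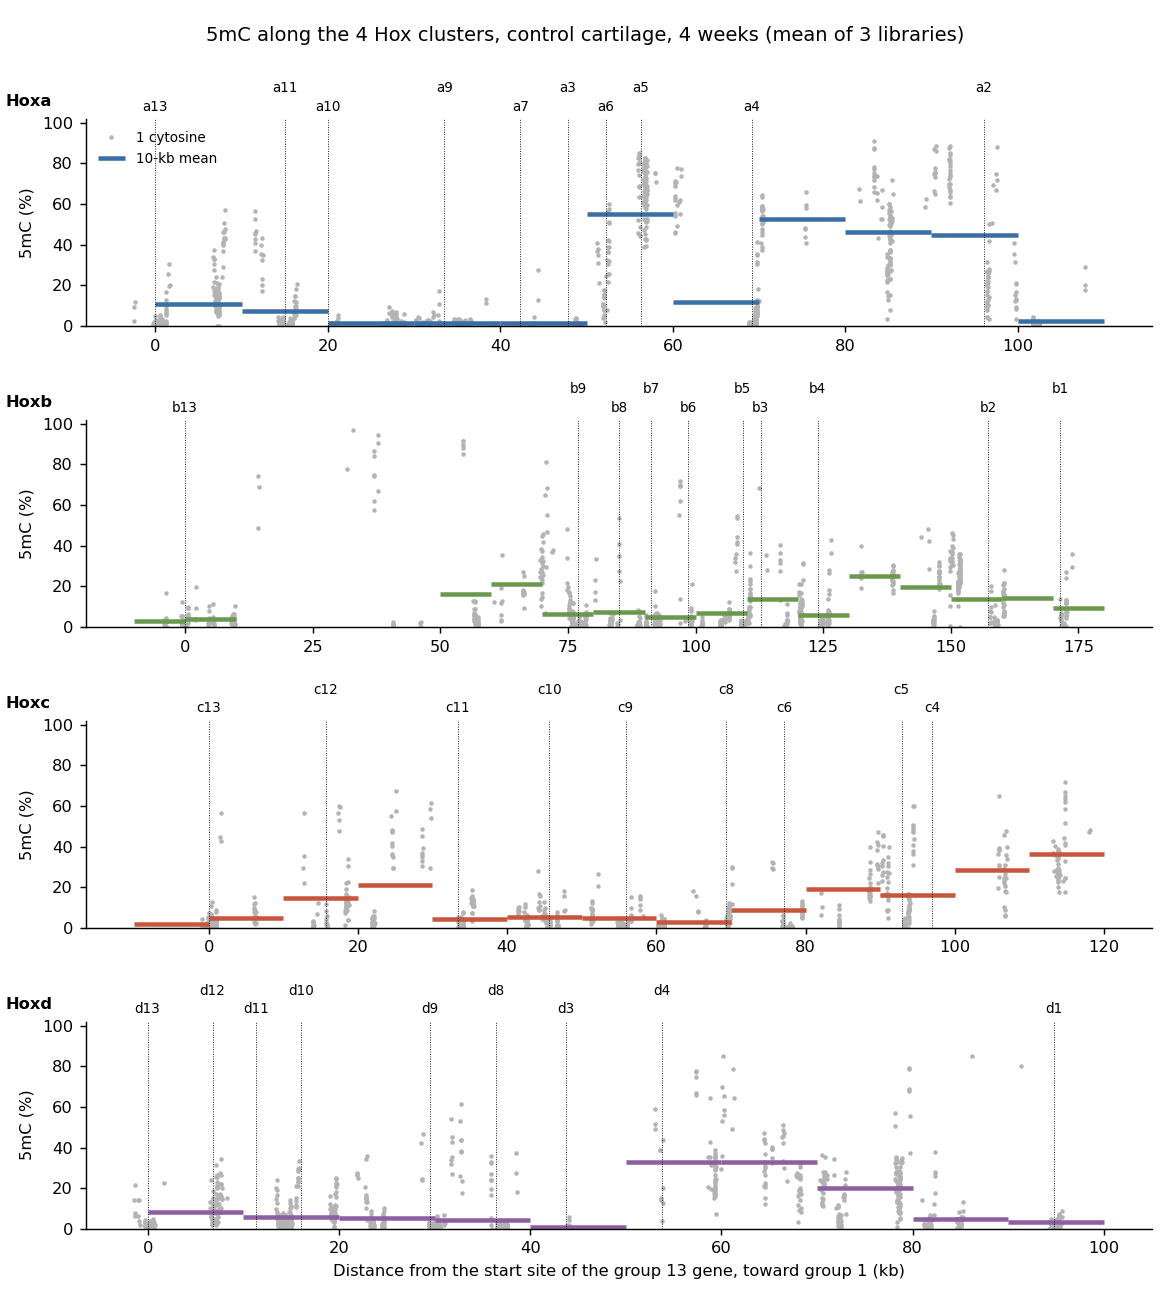
5mC (%, y axis) of every covered cytosine (grey points) and of 10-kb bins with 20 or more cytosines (bars) in control cartilage at 4 weeks, as the mean of 3 libraries, against the distance from the start of the group 13 gene in kb (x axis); dotted lines mark start sites of RefSeq genes, of which those of Hoxa3 and Hoxb3 belong to long transcripts that begin upstream of their neighbours. The bins of Hoxa10 to Hoxa7 sit close to 0. The highest bins stand at Hoxa5 to Hoxa2, inside Hoxb3, at the Hoxc4 end and over Hoxd4 and Hoxd3, and lower rises of 20.98% lie before Hoxb9 and between Hoxc12 and Hoxc11.

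The extremes of each cluster were looked up by region. Regions are chains of at least 3 covered cytosine positions with gaps of at most 100 bp. The stretch in an intron of Gm11539 printed above, between Hoxb13 and Hoxb9, read 90.9%, 88.9% and 87.6% in control and 90.1%, 91.3% and 91.6% in DMM at 4 weeks. In Hoxa the highest region was chr6:52177508-52177599, in an exon of 5730596B20Rik inside Hoxa3 introns, at 79.9%, 72.4% and 79.7% in control. The highest of Hoxd was chr2:74747789-74747825 in an exon of Hoxd3 (67.6%, 73.8% and 79.7%). The highest of Hoxc, chr15:102938597-102938632 at the end of Hoxc12, was more spread, at 39.05%, 67.9% and 54.2%. The lowest regions were close to 0 in every library. Haglr, a long noncoding RNA gene between Hoxd3 and Hoxd1, had 11 cytosines at 0.505%, 0.461% and 0.940%. An intron of Hoxa10 (chr6:52240199-52240224, 642 bp inside the start) read 0 in all 3 control libraries, an exon of Hoxb8 (chr11:96282843-96282854) 1.14%, 0.221% and 0, and an intron of Hoxc6 (chr15:102999205-102999321) 0, 0.568% and 0.435%.

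Gene starts were examined in windows from 1000 bp before to 500 bp after the start of each of the 39 Hox genes. 34 windows held a covered cytosine at 4 weeks, and those of Hoxa3, Hoxa7, Hoxc4 and Hoxd11 were among the windows that held none. In control cartilage 8 of the 34 (23.5%) averaged 10% 5mC or more, beside 14.6% of the windows of 13320 protein-coding genes. The 8 belonged mostly to genes of groups 2 to 8. Hoxa5, a gene of the axial skeleton and lung, had 68.3% ± 4.18 over 55 cytosines (72.4%, 64.0% and 68.4%). Hoxa6, its neighbour in the cervical and thoracic code, had 26.4% ± 2.06 over 41 cytosines, and Hoxa2, which patterns the second pharyngeal arch, had 17.7% ± 3.97 over 21. Hoxd4, a gene of the cervical vertebrae, had 31.5% ± 0.687 over 11 cytosines. Hoxb8 had 20.8% ± 2.98 over 9, and the window of Hoxb3 rested on 1 cytosine at 68.5% ± 10.1. The remaining pair are posterior genes, Hoxd10, which acts in the hindlimb and its motor neurons, at 19.8% ± 4.52 over 16 cytosines, and Hoxd12, a digit gene, at 11.8% ± 0.863 over 41. The lowest window of each cluster was that of Hoxa10 (0.627% ± 0.180), Hoxb7 (0.348% ± 0.305), Hoxc5 (1.83% ± 0.515) and Hoxd3 (0.971% ± 0.348). The choice of start mattered for 11 genes with alternative first exons. With the start of the transcript that had the most RNA counts, 7 windows averaged 10% or more, Hoxd10 moved to 6.65% ± 1.55, and Hoxc4 and Hoxc6 came in at 33.8% ± 11.2 and 21.2% ± 3.65.

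In control cartilage at 4 weeks the higher RNA levels of the clusters were those of groups 6 to 11 of Hoxa, Hoxc and Hoxd. 11 of the 39 genes had a mean of at least 1 CPM per kb of transcript in that group. On this scale, which is per length, the highest was Hoxa10 (11.8 for the transcript with the most counts and 25.5 summed over both its transcripts), a gene of the upper hindlimb skeleton, followed by Hoxc10 (7.41), Hoxa11 (4.81), Hoxd9 (4.63), Hoxd8 (4.33), Hoxc9 (3.86), Hoxa7 (3.20), Hoxc8 (2.94), Hoxc6 (2.59), Hoxd10 (2.14) and Hoxa9 (2.13). No Hoxb gene reached 1 there. In the other groups Hoxb7 (1.04 in DMM at 4 weeks) and Hoxa5 (1.075 in DMM at 12 weeks) passed 1 too. Hoxd12 had no count in any of the 12 RNA libraries. The counts are per transcript, and how reads shared by overlapping transcripts were counted is not given in the sources used here, which limits what a low level says. 5mC at the RefSeq gene starts did not separate the genes at 1 or more from those under 1. Of the 10 genes at 1 or more with a covered window, 9 were under 10% 5mC, and of the 24 genes under 1 with a covered window, 17 were. The RNA is that of the transcript with the most counts, which starts elsewhere in 11 genes, so RNA and 5mC can belong to different starts. At the transcript start Hoxd10 had 6.65% in place of 19.8%, and Hoxc6 had 21.2% in place of 2.89%. Across the 34 genes with both values, which share the same libraries and differ in CpG density, Spearman's rho of RNA level and start 5mC was −0.12. Hoxa5, the gene with the most methylated well-covered start, had an RNA level of 0.886 CPM per kb, beside 0.0753 for Hoxa6.

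At 12 weeks 5mC of the 4 clusters stood apart between the limbs in opposite directions. Hoxb averaged 10.7%, 10.99% and 10.6% in the control libraries and 8.32%, 8.88% and 8.74% in the DMM libraries, a difference of −2.10 percentage points (points below). Hoxa averaged 19.04%, 18.8% and 19.1% in control and 16.8%, 18.2% and 17.8% in DMM, a difference of −1.41 points. In both clusters every DMM library lay under every control library. Hoxc averaged 10.3%, 10.1% and 9.42% in control and 12.1%, 11.7% and 10.8% in DMM, 1.597 points higher. Hoxd averaged 9.70%, 9.00% and 9.08% in control and 10.9%, 10.97% and 10.4% in DMM, 1.47 points higher. In these clusters every DMM library lay above every control library, while over all 1273121 cytosines the DMM libraries lay lower (29.96%, 29.7% and 30.3% against 28.8%, 29.5% and 29.0%). As 1 set, the Hox cytosines overlapped between limbs (difference −0.169 points), since the directions of the clusters cancel. No p is attached to these means. Control replicate 2 and DMM replicate 1 of 12 weeks share a naming style and a coverage profile that the other libraries do not have. Without both, over the same cytosines, the Hoxa difference was −1.11 points and the Hoxb difference −1.82 points.

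The BS libraries, labelled as made from the same pools and read separately, had limbs apart in the same direction in 3 clusters at 12 weeks. The BS signal of Hoxb was 11.4%, 11.5% and 11.3% in control and 9.51%, 10.2% and 9.14% in DMM. That of Hoxc was 12.7%, 12.96% and 11.3% against 15.0%, 14.3% and 13.9%, and that of Hoxd 11.4%, 10.6% and 11% against 13.1%, 12.9% and 12.97%. The limbs did not overlap in these 3 clusters, and they did in Hoxa (difference −0.432 points). The deposited BS table of DMM replicate 1 at 12 weeks is numbered 2 in its own name and 1 in its label. The label was followed, and whether that table belongs to that pool was not tested. Without that library the BS differences were −1.75 points in Hoxb, 1.76 in Hoxc and 1.92 in Hoxd.

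At 4 weeks the limbs overlapped in every cluster. Hoxb averaged 11.8%, 8.65% and 10.1% in control and 9.53%, 7.52% and 7.64% in DMM. Hoxc averaged 9.63%, 12.0% and 10.5% in control and 11.4%, 14.1% and 13.2% in DMM. Hoxd averaged 8.59%, 10.6% and 9.19% against 10.5%, 11.7% and 10.4%. The 6 libraries of this week stood in exactly opposite order in Hoxb and Hoxc, so that control replicate 2, the control library lowest in Hoxb, was the control library highest in Hoxc. Hoxa averaged 18.5%, 17.1% and 17.9% against 17.4%, 17.5% and 17.9%, a difference of −0.225 points that was 0.128 over the same cytosines without control replicate 1. The mean differences of Hoxb, Hoxc and Hoxd (−1.95, 2.20 and 1.39 points) had the signs of 12 weeks (−2.10, 1.597 and 1.47 points), with a wider spread of the libraries (SD 0.757 to 1.57 points at 4 weeks and 0.216 to 0.648 at 12 weeks). Without control replicate 1 the Hoxb difference at 4 weeks was −1.15 points. Taken by replicate number, every DMM library lay under the control library of its number in Hoxb and above it in Hoxc and Hoxd. Hoxa was mixed. The labels do not say that equal numbers share mice, so this is not a paired comparison.

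**Figure D2:**
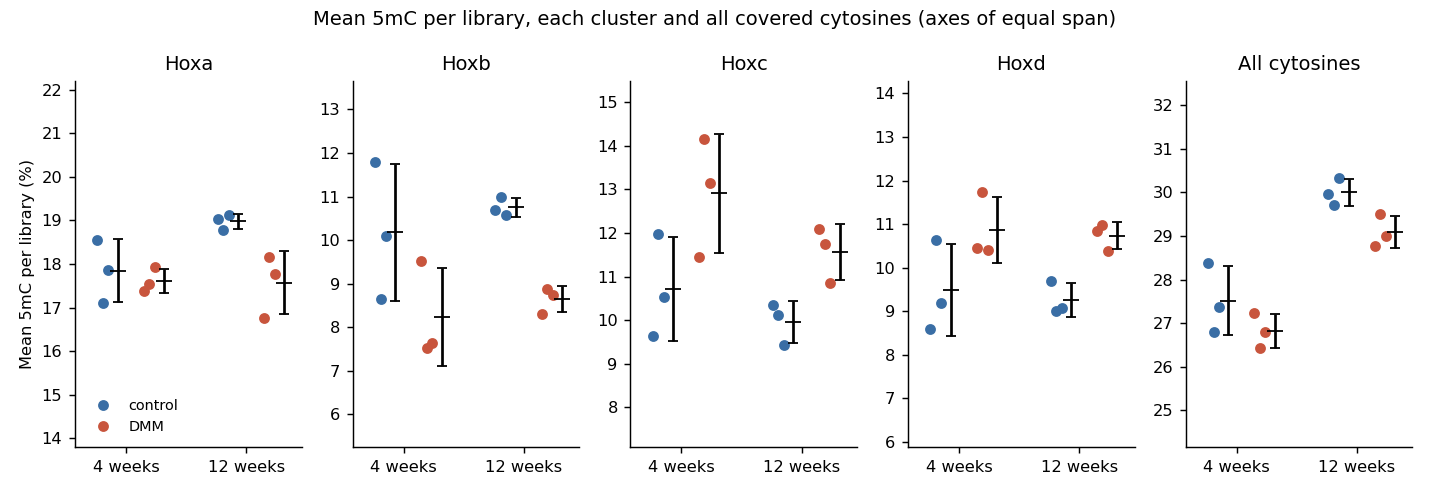
Mean 5mC of each library (%, y axis, axes of equal span that do not start at 0) for the covered cytosines of each cluster and of the genome, by week (x axis) and limb, with the mean and SD of 3 libraries as bars. At 12 weeks the DMM libraries sit under the control libraries in Hoxa and Hoxb and above them in Hoxc and Hoxd.

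In percentage points, the larger differences stood in the partly methylated blocks. Bins close to 0 cannot fall by several points, so the scale itself favours this placement. In 10-kb bins of 20 or more cytosines at 12 weeks, the DMM libraries lay above all control libraries in 4.64% of 14781 bins of the genome and under them in 21.8%. In Hoxc 7 of 13 bins were higher and 1 lower, and in Hoxd 4 of 10 were higher and 2 lower. In Hoxb 0 of 15 were higher and 7 lower, and in Hoxa 3 of 11 were higher and 5 lower. The share of lower bins in Hoxb and Hoxa was above that of the genome, as was the share of higher bins in Hoxc, Hoxd and Hoxa. At 4 weeks the background was 2.54% higher and 6.22% lower, and 0 and 0 of 11 Hoxa bins, 0 and 3 of 15 Hoxb bins, 2 and 0 of 13 Hoxc bins and 1 and 0 of 10 Hoxd bins did not overlap.

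Within Hoxb the bins inside and behind Hoxb3 differed most. The bin at 130 to 140 kb read 31.0%, 40.5% and 30.6% in control and 19.9%, 17.9% and 17.7% in DMM at 12 weeks, a difference of −15.5 points. The neighbours at 140 to 150 and 150 to 160 kb, the latter with the start of Hoxb2, differed by −7.26 and −4.62 points. The rest of the cluster stayed within −3.48 and 0.0545 points in bins of that size. In Hoxa the bins at 70 to 80 and 80 to 90 kb, in Hoxa3 introns behind Hoxa4, read 58.1%, 55.6% and 62.1% against 41.1%, 52.9% and 44.1%, and 50.6%, 52.3% and 50.7% against 38.2%, 43.1% and 43.1%. The bin of Hoxa5 and Hoxa6 was 4.83 points lower, and at the other end the bin behind Hoxa13 was 2.85 points higher (10.8%, 8.43% and 8.39% against 13.04%, 11.9% and 11.3%). Hoxa therefore held both directions, lower in the anterior block and higher at the group 13 end.

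Hoxd differed in 3 bins in a row. They cover Hoxd4 and Hoxd3 at 50 to 80 kb, and the differences were 4.86, 7.45 and 6.86 points. The middle bin read 31.1%, 28.9% and 26.0% in control and 36.5%, 36.0% and 35.9% in DMM. The bins of Hoxd9 and Hoxd1 went the other way by −1.41 and −1.18 points, without overlap. In Hoxc the bin at 110 to 120 kb, inside Hoxc4, read 31.1%, 26.0% and 24.6% against 34.8%, 37.9% and 34.8% (8.63 points), and the bin between Hoxc12 and Hoxc11 read 18.0%, 17.6% and 15.6% against 23.1%, 21.1% and 21.7% (4.88 points). The bin of Hoxc10 went the other way, at 5.61%, 6.78% and 6.23% against 4.32%, 4.52% and 4.04%.

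**Figure D3:**
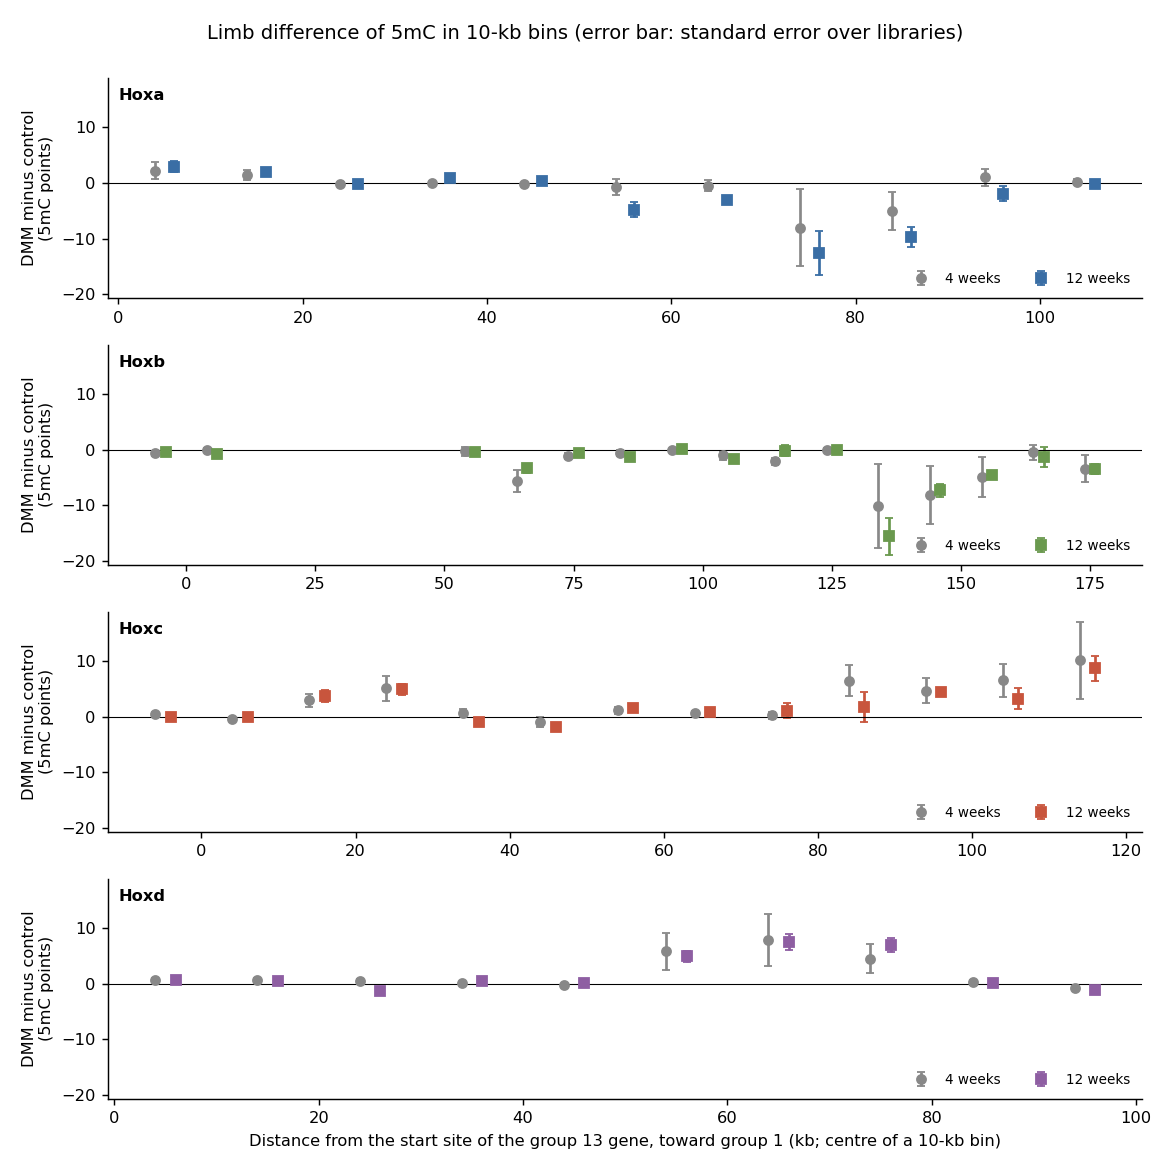
Difference of mean 5mC, DMM minus control (percentage points, y axis), in 10-kb bins with 20 or more cytosines along each cluster (x axis, kb from the start of the group 13 gene), with the standard error over libraries as bars; circles are 4 weeks and squares 12 weeks. Negative values stand in Hoxb at 130 to 160 kb and in Hoxa at 50 to 90 kb, and positive ones in Hoxd at 50 to 80 kb and in Hoxc at 10 to 30 and 80 to 120 kb.

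Counted by cytosine, the same split was seen. Among partly methylated cytosines (10% to 80%, mean of all libraries) at 12 weeks, DMM was higher in all 3 libraries at 4.49% of 290294 in the genome and lower at 16.8%. In Hoxc 50 of 241 (20.7%) were higher and 6 lower, and in Hoxd 66 of 356 (18.5%) were higher and 10 lower. In Hoxb 3 of 265 were higher and 84 (31.7%) lower. In Hoxa 34 of 410 (8.29%) were higher and 75 (18.3%) lower, the latter near the background. The 4-week background was 3.01% higher and 6.55% lower, beside 40 and 0 of 277 in Hoxc, 39 and 7 of 379 in Hoxd, 5 and 27 of 295 in Hoxb, and 15 and 15 of 436 in Hoxa. The median difference of these cytosines at 12 weeks was −3.33 points in Hoxa, −7.41 in Hoxb, 4.43 in Hoxc and 5.19 in Hoxd, beside −3.62 in the genome. Neighbouring cytosines share reads and are not independent.

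No region of the clusters passed the test across the genome. limma on the log2 ratio of methylated to unmethylated reads, with Benjamini-Hochberg adjustment over 106407 regions at 4 weeks and 102487 at 12 weeks, called 0 of 264 and 0 of 259 Hox regions, and 0% of all regions at either week. The count was 0 as well under each alternative run for this test. At an unadjusted p under 0.05, 19 Hox regions (7.20%) stood out at 4 weeks, beside 4.17% of all, and 56 (21.6%) at 12 weeks, beside 13.4% of all. The excess at 12 weeks was on the higher side, with 28 regions higher in DMM (10.8%, background 2.86%) and 28 lower (10.8%, background 10.5%). The limbs did not overlap in 71 Hox regions at 12 weeks (27.4%, background 19.8%), 36 higher (13.9%, background 5.19%) and 35 lower (13.5%, background 14.6%). By cluster, 11 were higher and 10 lower of 69 in Hoxa, 2 and 13 of 72 in Hoxb, 13 and 6 of 62 in Hoxc, and 10 and 6 of 56 in Hoxd. At 4 weeks 31 did not overlap (11.7%, background 9.24%), 17 higher (background 3.49%) and 14 lower (background 5.75%).

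The BS signal of the regions named for the size of their difference was read over the cytosines covered in both forms. At 12 weeks the BS signal went in the direction of 5mC in 7 of 8 regions, without overlap in 5, and in 3 of the 7 by less than 0.5 of the 5mC difference. Among those without overlap, the region in the intron of Hoxc13 rested on 1 cytosine covered in both forms. At 4 weeks it had the direction of 5mC in 8 of 8 and did not overlap in 1.

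The largest region differences of Hoxb without overlap lay in Hoxb3, an anterior gene of hindbrain and neck. The exon stretch printed above, 7033 bp before the Hoxb2 start, read 48.2%, 46.2% and 49.5% in control and 29.1%, 30.1% and 32.9% in DMM at 12 weeks. The control libraries were tight and every DMM library lay under them (difference −17.2 points, unadjusted p = 0.00141, limma adjusted p = 0.217). The BS signal was as far apart (46.9%, 53.3% and 46.04% against 30.2%, 31.2% and 32.3%). The same 12 cytosines at 4 weeks read 45.6%, 25.7% and 39.8% in control and 30.5%, 11.4% and 19.9% in DMM, which overlap. A longer stretch in an intron of Hoxb3 (chr11:96332722-96333068, 25 cytosines) read 29.0%, 38.9% and 32.4% in control and 17.8%, 16.2% and 16.7% in DMM at 12 weeks (−16.5 points, limma adjusted p = 0.217). At 4 weeks the largest differences without overlap were smaller and lay before Hoxb9, at chr11:96264916-96264963 (48.6%, 44.9% and 43.5% against 38.3%, 37.0% and 37.5%) and at chr11:96264048-96264379 (32.2%, 27.4% and 25.8% against 21.2%, 25.1% and 18.1%). The latter region was lower in all DMM libraries at 12 weeks too (25.8%, 24.6% and 26.7% against 22.9%, 20.3% and 20.8%).

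In Hoxa the intron stretch printed above, 6211 bp downstream of the Hoxa4 start, read 59.3%, 52.4% and 59.6% in control and 37.7%, 47.0% and 40.1% in DMM at 12 weeks (−15.5 points, limma adjusted p = 0.239). The BS signal overlapped (−7.34 points). At 4 weeks its limbs overlapped (59.6%, 39.7% and 56.8% against 44.2%, 35.7% and 47.8%). A second stretch in a Hoxa3 intron behind Hoxa5, chr6:52200590-52200669 with 10 cytosines, was among the largest differences at both weeks. It read 52.6%, 52.5% and 45.2% against 36.7%, 36.5% and 32.8% at 12 weeks (−14.8 points, limma adjusted p = 0.275). The BS signal, over the 6 of these cytosines covered in both forms, did not show that difference (46.9%, 36.7% and 55.8% against 49.4%, 55.04% and 45.5%). The stretch read 73.0%, 54.4% and 53.0% against 51.2%, 52.6% and 53.0% at 4 weeks, where control replicate 1 stood apart and the other control libraries were close to DMM. The 1 Hoxa region named for a higher level, in the intron of the digit gene Hoxa13 (chr6:52259228-52259370), read 17.7%, 27.3% and 26.8% against 27.5%, 32.5% and 35.1% at 4 weeks and overlapped at 12 weeks (20.5%, 15.4% and 14.8% against 28.2%, 16.8% and 20.2%).

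In Hoxc the stretch printed above, 4752 bp before Hoxc11, was higher in DMM at both weeks. It read 33.0%, 43.1% and 38.0% in control and 45.9%, 60.2% and 51.5% in DMM at 4 weeks (14.5 points, limma adjusted p = 0.823). At 12 weeks it read 36.2%, 31.8% and 26.9% in control and 43.0%, 40.0% and 43.1% in DMM (10.4 points, limma adjusted p = 0.321). 3 cytosines before Hoxc12 (chr15:102933881-102933899) read 34.4%, 18.97% and 26.5% against 43.5%, 41.7% and 43.7% at 12 weeks, where the DMM libraries were tight and the control libraries spread. The BS signal overlapped there (5.19 points). 3 cytosines in the intron of Hoxc13 (chr15:102922699-102922828), a hair and nail gene, read 35.5%, 36.3% and 35.7% against 57.1%, 48.4% and 44.2% (14.1 points, limma adjusted p = 0.231). The BS signal, over the 1 of these cytosines covered in both forms, was 34.4%, 36.4% and 26.0% against 53.5%, 41.7% and 38.9%. At 4 weeks a 20-cytosine region in an intron of Hoxc4 (chr15:103027756-103028154) read 23.2%, 29.1% and 22.6% against 29.9%, 36.0% and 33.0%, and it overlapped at 12 weeks.

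In Hoxd the largest differences without overlap all lay in Hoxd3, an anterior gene of the neck vertebrae. The exon stretch printed above, 15912 bp before Hoxd1, read 30.3%, 21.8% and 23.5% in control and 37.6%, 52.8% and 49.0% in DMM at 12 weeks (21.3 points, unadjusted p = 0.00296, limma adjusted p = 0.219), the largest difference of any Hox region without overlap. The BS signal of the same cytosines differed by less, at 25.9%, 25.6% and 24.0% against 32.5%, 27.5% and 38.0% (7.51 points). In the DMM libraries it lay under the 5mC level, which leaves negative 5hmC values, so the size of this difference rests on the oxBS reads. At 4 weeks its 4 cytosines overlapped (25.7%, 41.4% and 33.3% against 34.1%, 49.4% and 30.4%). An intron region of 8 cytosines, chr2:74734592-74734787, read 36.4%, 39.4% and 29.3% against 46.9%, 49.6% and 46.1% at 12 weeks (12.5 points, limma adjusted p = 0.318). Both regions with the largest differences at 4 weeks were higher in all DMM libraries at both weeks. chr2:74739199-74739232 read 18.6%, 25.6% and 26.8% against 33.7%, 51.6% and 30.4% at 4 weeks and 26.2%, 22.8% and 25.5% against 32.7%, 34.5% and 26.9% at 12 weeks. chr2:74735992-74736102 read 19.2%, 31.9% and 27.7% against 38.2%, 48.8% and 36.1% at 4 weeks, and the 12-week region there 23.1%, 19.5% and 21.7% against 38.8%, 26.0% and 26.4%.

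Single cytosines were tested on the reads pooled over the libraries of a limb, with a likelihood ratio test and Benjamini-Hochberg adjustment, at a q under 0.05 and a difference of at least 25 points. The thresholds are those of the study, which called cytosines with methylKit, a tool not run here. Over the genome the called 5mC cytosines here numbered 8 at 4 weeks and 2892 at 12 weeks. The paper reports more at each week. At 4 weeks 0 of 4492 Hox cytosines were called (background 0.000554%), and 453 had an unadjusted p under 0.05 (10.1%, background 8.02%). 8 were called without control replicate 2. At 12 weeks 12 of 3995 (0.300%) were called, close to the background of 0.227%. 6 of the 7 in Hoxa and all 3 in Hoxb were lower in DMM, both in Hoxc were higher, and Hoxd had none. The pooled test takes reads as independent. At an unadjusted p under 0.05 there were 640 (16.0%, background 9.43%). The same test with an overdispersion term for the spread between libraries called 0, and the count was 26 without DMM replicate 3.

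The largest difference among the called cytosines was in Hoxc. At chr15:102945762, in an exon of Hotair, a long noncoding RNA gene between Hoxc12 and Hoxc11 known for its Polycomb partners, 5mC was 27.5%, 25% and 27.8% in control and 65.2%, 69.6% and 72.2% in DMM (41.5 points on pooled reads, q = 0.000122). Its neighbour 102945756 read 24.4%, 31.2% and 33.3% against 57.4%, 56.5% and 56.8%. At 4 weeks the limbs overlapped there, with 37.5%, 65.2% and 41.4% in control and 45.5%, 56.2% and 62.5% in DMM at 102945762. In Hoxa, chr6:52185509, inside the intron stretch printed above, read 60%, 50% and 63.6% against 21.3%, 32.6% and 21.2% (−33.9 points), and 52185470 in the same stretch 66.2%, 56.0% and 72.7% against 34.9%, 43.8% and 32.7%. In an exon of Hoxa4, a cervical gene, 52190567 read 70.4%, 55.2% and 54.2% against 33.8%, 35.0% and 18.9%. In an exon of Hoxa5, 52203914 read 90.2%, 73.3% and 78.8% against 51.1%, 46.4% and 58.3%, and 52203910 read 80.5%, 66.7% and 78.8% against 49.5%, 39.3% and 50%. The cytosine called higher in Hoxa, 52252866 between Hoxa13 and Hoxa11, read 43.8%, 26.3% and 33.3% against 76.5%, 68.0% and 45.0%. In Hoxb3, chr11:96332970 of the intron read 32%, 60% and 27.8% against 12.8%, 0 and 14.0%, and 96344605 of the exon stretch 50%, 51.9% and 54.5% against 21.6%, 33.3% and 29.6%. On pooled reads the 4-week differences at the 12 called cytosines were between −9.07 and 6.16 points.

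The direction of each region tended to be the same at both weeks. Across 247 Hox regions covered at both, the limb differences of 4 and 12 weeks had a Pearson r of 0.79 and a Spearman rho of 0.70 across regions, beside 0.648 and 0.471 across all 96986 regions. They had the same sign in 185 (74.9%, beside 63.3% of all), and among partly methylated regions in 90 of 103 (87.4%, beside 75.7%). Of these, 20 of 23 in Hoxc and 26 of 32 in Hoxd were higher in DMM at both weeks, 18 of 22 in Hoxb were lower at both, and Hoxa was mixed with 10 higher and 13 lower of 26. In the genome 16.8% of the partly methylated regions were higher at both weeks and 58.9% lower at both. The weeks have separate mice and controls. Regions within a cluster are not independent of each other, so these numbers describe 4 clusters and carry no p. Within clusters r was 0.87 in Hoxa, 0.84 in Hoxb, 0.82 in Hoxc and 0.47 in Hoxd, and among partly methylated regions 0.93, 0.76, 0.67 and 0.26, beside 0.67 in the genome, so that by r the differences were least alike in Hoxd. By Spearman rho Hoxd was the lowest cluster among partly methylated regions (0.45). Over all regions Hoxb had the lowest rho (0.554, beside 0.637 in Hoxd). 5 of 247 regions were higher without overlap of the limbs at both weeks (2.02%, background 0.387%) and 2 were lower (0.810%, background 0.989%).

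**Figure D4:**
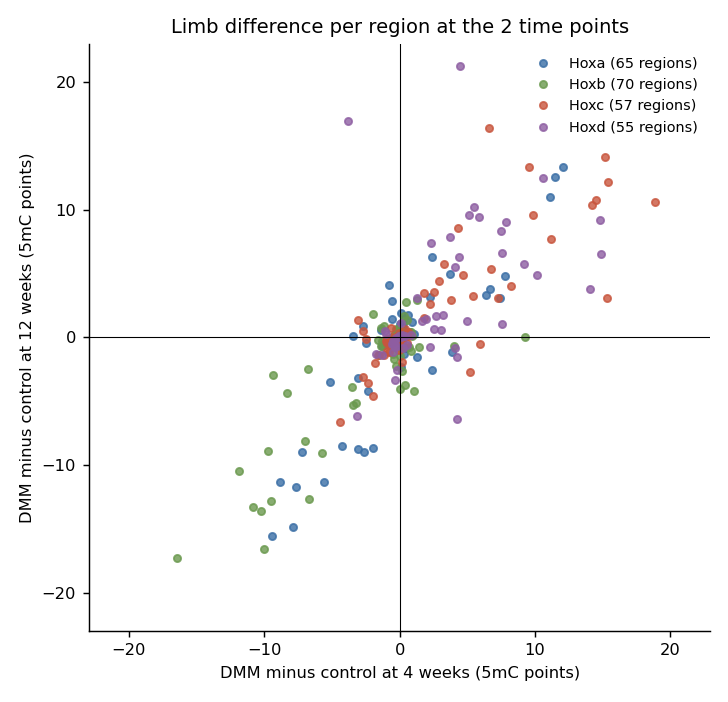
Difference of mean 5mC, DMM minus control, of 247 Hox regions at 4 weeks (x axis) and 12 weeks (y axis), in percentage points, coloured by cluster. Most of the larger Hoxb differences are negative at both weeks and most of those of Hoxc and Hoxd positive at both, while those of Hoxa lie on both sides.

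Between the weeks no region was called. limma called 0 of 247 Hox regions for 12 against 4 weeks in control, in DMM or for the interaction of limb and week, and 0% of all 96986. At an unadjusted p under 0.05 there were 18 (7.29%, background 13.8%), 12 (4.86%, background 12.1%) and 4 (1.62%, background 3.61%), each a smaller share than in the genome. The small differences leaned to lower values at 12 weeks in Hoxc, with 13 regions higher and 44 lower in control and 17 and 40 in DMM, and in Hoxd in DMM (16 and 39), beside 51.9% higher in control and 50.5% in DMM over the rest of the genome (median differences of −0.57 points in Hoxc in either limb and −0.464 in Hoxd in DMM). The floor of the reads fell between the weeks as well. The mitochondrial genome read 0.530 to 0.742% methylated in the oxBS libraries of 4 weeks and 0.284 to 0.351% in those of 12 weeks. The median start window of protein-coding genes in control was 0.8245% and 0.4838%. The median differences above are of a size near these shifts, whose part was not tested. DNA libraries were combined in pools of 6 before conversion, and which libraries shared a pool is not given in the sources used here, so its part was not tested.

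Start windows of the genes mostly stayed low in both limbs. At 12 weeks 4 of 33 covered windows were higher in all DMM libraries (background 4.55%) and 6 lower (background 10.8%), and at 4 weeks 1 of 34 was higher (background 3.15%) and 0 lower (background 6.07%). Among windows of 5 or more cytosines at the RefSeq gene starts the largest difference was that of Hoxa5, at 71.0%, 68.8% and 76.0% in control and 58.5%, 66.9% and 64.8% in DMM at 12 weeks, after 72.4%, 64.0% and 68.4% against 66.5%, 64.8% and 68.5% at 4 weeks. At the start of the transcript with the most counts, Hoxc4 differed by more (8 cytosines, 28.4% ± 1.15 in control and 37.9% ± 7.68 in DMM at 12 weeks). The windows of Hoxc8 and Hoxc9, thoracic and lumbar genes with RNA in this tissue, were higher at low levels (named after their values were seen; 4.60%, 4.92% and 3.04% against 7.63%, 7.20% and 5.47%, and 1.86%, 1.71% and 1.98% against 2.24%, 3.79% and 3.46%). Those of Hoxa10 and Hoxb9 were higher too, close to 0. At similar low levels the windows of Hoxa4, Hoxa13, Hoxb13, Hoxc5 and Hoxd1 were lower without overlap. That of Hoxc5, in the same cluster, read 2.45%, 2.25% and 3.70% against 1.53%, 1.87% and 2.05%. RNA and 5mC of a gene could not be matched library by library, since the mice differ.

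5hmC was a small part of the signal, and its share differed between clusters more than between limbs. In control cartilage at 4 weeks mean 5hmC was 3.0% ± 0.892 in Hoxa, 0.642% ± 0.198 in Hoxb, 3.28% ± 0.745 in Hoxc and 1.85% ± 0.583 in Hoxd (SD, n = 3), beside 2.16% ± 0.501 for all cytosines, over 4022 Hox cytosines covered in both forms. As a share of the BS signal, 5hmC made up 19.04%, 22.2% and 25.2% in Hoxc in the control libraries. Over all 12 libraries that share was between 17.6% and 25.4% in Hoxc, while over all cytosines of the genome it was between 4.49% and 9.38%. The Hoxb share was between 1.67% and 11.1%, which spans the range of the genome, and under that of Hoxc in every library. In Hoxa it was between 8.04% and 18.98% and in Hoxd between 11% and 18.9%. No Hoxc cytosine reached 80% 5mC in control at 4 weeks, unlike in the genome, so cytosines of the same 5mC class were compared too. At 30% to 50% 5mC mean 5hmC at 4 weeks was 10.2% in Hoxc (lowest and highest library 9.16% and 12.2%), 9.96% in Hoxa (5.0% and 14.4%), 5.86% in Hoxd (3.01% and 7.44%) and 0.945% in Hoxb (−1.86% and 3.30%), beside 8.72% in the genome (5.86% and 11.1%). In that class Hoxc lay above the genome in 5 of 6 libraries and Hoxa in 4 of 6. Hoxb and Hoxd each lay under it in 6 of 6. At 12 weeks 5hmC of the class was 7.33% in Hoxc (5.66% and 9.39%), above the genome (5.37%) in 6 of 6 libraries, and −0.0917% in Hoxb, under it in 6 of 6. Hoxd had 3.20% and lay under the genome in 5 of 6 libraries, and Hoxa had 7.01% and lay above it in 4 of 6. At 50% to 80% 5mC Hoxc did not stand above the genome, with 7.78% against 8.45% at 4 weeks (above it in 2 of 6 libraries, 40 cytosines) and 6.15% against 6.23% at 12 weeks (3 of 6, 13 cytosines), while Hoxb was under it in 5 of 6 libraries at each week. Hoxd was under it in 5 of 6 libraries at 4 weeks and 4 of 6 at 12 weeks, and Hoxa in 4 of 6 and 2 of 6. Under 10% 5mC, where 710 of 985 Hoxb cytosines lay at 4 weeks, Hoxb was above the genome (0.550% against 0.166%). So were Hoxa (0.584%), Hoxc (0.881%) and Hoxd (0.615%). At 12 weeks Hoxb had 0.458% in that class, against 0.1585% in the genome. The class is set by the oxBS reads that also enter the difference, and levels within it were not matched. The median 5mC of covered cytosines in control at 4 weeks was 3.07% in the clusters and 1.84% in the genome. The part of that difference in the 5hmC values was not tested.

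**Figure D5:**
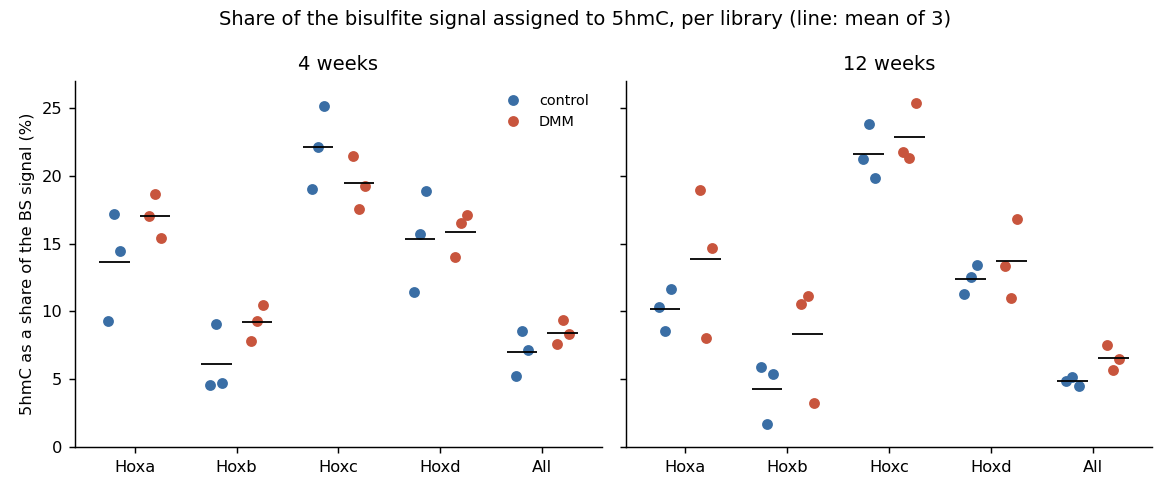
5hmC as a percent of the BS signal in each library (y axis, from 0) for the cytosines of each cluster and of the genome (x axis) at 4 weeks (left) and 12 weeks (right), with the mean of 3 libraries as a line; blue is control and red DMM. Hoxc sits between 17.6% and 25.4% and Hoxd between 11% and 18.9%, both above all genome values, and Hoxb at 1.67% to 11.1%.

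The limbs did not separate in 5hmC in any cluster. At 12 weeks Hoxa read 2.15%, 1.73% and 2.49% in control and 3.93%, 1.599% and 3.02% in DMM, and Hoxc 2.69%, 3.08% and 2.25% against 3.26%, 3.05% and 3.52%. Hoxd read 1.28%, 1.33% and 1.48% against 1.75%, 1.42% and 2.18%, and Hoxb 0.670%, 0.193% and 0.605% against 1.0%, 1.13% and 0.295%. Each cluster mean was higher in DMM (0.320 to 0.727 points) and each overlapped. Single libraries moved these values over the same cytosines. The Hoxa difference was 0.187 points without DMM replicate 1, whose BS table is the one in doubt, and 1.35 without DMM replicate 2. That of Hoxb was 0.172 without control replicate 2, 0.158 without DMM replicate 2 and 0.577 without DMM replicate 3. That of Hoxc was 0.388 without control replicate 3, and that of Hoxd 0.221 without DMM replicate 3. Without both libraries of the shared naming style the Hoxa difference was −0.00923 points and the Hoxb difference 0.0767. Over the 3712 Hox cytosines together the DMM libraries were above the control libraries (1.65%, 1.505% and 1.70% against 2.47%, 1.71% and 2.22%), as they were over all cytosines (1.54%, 1.63% and 1.43% against 2.35%, 1.77% and 2.02%). At 4 weeks the cluster differences were 0.0269 to 0.849 points, all with overlap, and here too 1 library moved them. Without control replicate 1 the difference was 0.359 points in Hoxa, 0.0121 in Hoxd and −0.402 in Hoxc. Over all libraries left out in turn it ran from 0.104 to 0.289 in Hoxb (without control replicates 3 and 2), from −0.402 to 0.266 in Hoxc and from 0.0121 to 0.552 in Hoxd (without control replicates 1 and 3). limma called 0 of 257 Hox regions for 5hmC at 4 weeks and 0 of 250 at 12 weeks (0% of all regions). At an unadjusted p under 0.05 there were 6 (2.33%, background 4.47%) and 9 (3.60%, background 5.9%), and the alternatives called 0 too. Of single cytosines 0 were called at either week (background 0.00863% and 0.0396%), with 953 and 677 at an unadjusted p under 0.05 (background 18.7% and 14.5%), and other settings called up to 8.

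The regions with the most 5hmC in control were partly methylated and lay within 1486 bp of a Hox start. In Hoxc, 4 cytosines 1486 bp before Hoxc6 (chr15:102996676-102996804) had 17.4%, 30.9% and 15.1% 5hmC in control and 17.8%, 33.3% and 32.4% in DMM at 4 weeks, next to 26.3%, 31.0% and 34.7% 5mC in control. At 12 weeks 5hmC there was 20.7%, 22.8% and 22.5% in control and 20.8%, 16.4% and 20.7% in DMM, so all 12 libraries held a level above 15%. In Hoxd the highest were 3 cytosines in an exon of Hoxd4, 130 bp inside its start (14.2%, 21.7% and 16.4% in control and 14.9%, −3.49% and 23.9% in DMM at 4 weeks). At 12 weeks they read 16.4%, 19.4% and 12.3% against −3.03%, 21.4% and 4.78%, with the DMM libraries spread widely at both weeks. In Hoxa they were 6 cytosines 871 bp before Hoxa6 (8.83%, 17.0% and 15.2%). The highest Hoxb region, before Hoxb5, rested on 1 library (31.7%, −0.109% and −5.49%).

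Other genes of Hox function were followed at their start windows, and of 29 listed genes 28 had a region there at 4 weeks. Of 9 Hox cofactor genes (Pbx, Meis and Pknox families, homeodomain partners that bind DNA with Hox proteins), 9 Polycomb genes, 9 limb genes (Tbx5 of the forelimb among them) and the flanking Evx1 and Evx2, 0 of 49 regions were called by limma at 4 weeks and 0 of 52 at 12 weeks. At an unadjusted p under 0.05 there were 3 at 4 weeks and 9 at 12 weeks (background 4.17% and 13.4%). 6 of those 9 were among the 17 regions of the limb genes (Pitx1, Tbx4, Prrx2, Lmx1b and Msx1), chosen for naming after their values were seen. They include Pitx1 and Tbx4, the hindlimb identity genes, whose windows averaged 8.18% in control and 9.83% in DMM, and 17.7% and 12.5%, at 12 weeks. The remainder were in 1 Polycomb gene (Ezh2) and 2 cofactor genes (Pbx2 and Pbx4).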

How the data were processed

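Cartilage of the tibial plateaus and femoral condyles was pooled per limb and week, and per the labels the DNA was cut with MspI and split into a BS and an oxBS reaction. The authors trimmed the reads, aligned them to GRCm38 (mm10) and called methylation per base with a pipeline of their own (Bismark stands in the processing notes), and deposited, for each cytosine and library, the coverage as read counts and the percent methylated. They deposited RNA-seq counts per transcript (STAR and featureCounts, with base calls by CASAVA 2.17, per the processing notes), and whether the counting used strand is not given in the sources used here. Methylated reads were recomputed here as coverage times percent, and 5hmC as the BS percent minus the oxBS percent where both forms had 10 reads. Regions joined at least 3 cytosine positions with gaps of at most 100 bp and were tested with limma 3.58.1 (R 4.3.3) on the log2 ratio of methylated to unmethylated reads with 1 added to each. The 5hmC regions were tested on the difference in percentage points. Cytosines were tested on pooled reads with a likelihood ratio test (for 5hmC on BS methylated reads less those the oxBS share predicts, negatives set to 0), adjusted over all cytosines, with 25 points as the minimum. The scripts ran on Python 3.11.15, numpy 2.4.6, pandas 2.3.3 and scipy 1.17.1, and were checked on simulated data. Genes, exons and sequences came from RefSeq (GRCm38.p6).

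The members and lists were chosen with earlier results of these data known. The values of 1 gene are not reported here. Regions named are, per cluster and week, the largest differences without overlap of the limbs, and the highest and lowest 5mC and the highest 5hmC in control at 4 weeks. Cytosines named are the 10 largest called differences. Libraries are pools of 3 knees. The paper describes the left knees as contralateral controls, from the same mice as the operated limbs, but the labels do not tie a left pool to a right pool. The deviations of same-numbered libraries correlated at 0.258, 0.209 and 0.003 at 4 weeks and −0.055, −0.046 and 0.038 at 12 weeks. Those of differently numbered libraries ran from −0.290 to 0.008 and from −0.082 to 0.118. No pairing was used in the main tests, and whether equal numbers share mice was not tested. The limma p-values measure the spread between pools. The cytosine p and q values rest on reads pooled within a limb and do not measure that spread, except with the overdispersion term. BS levels of the named regions, and BS means without 1 library, were added after the data were seen. Alternatives were a coverage of 20, highest coverage left out, other region settings, read-weighted means, merged strands, a replicate block and leaving out libraries.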

Additional observations from a re-analysis of the deposited data

How the results depend on the processing

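A count was rated as unchanged where it was equal to the main one or within a set ratio of it. A mean difference was rated so where it kept its sign and moved by less than the SD between libraries. That SD was wide in some clusters, so sizeable shifts can count as unchanged. By this rule 75 of 75 alternatives for 5mC region counts, 73 of 73 for 5hmC region counts, 100 of 105 for mean 5mC and 104 of 115 for mean 5hmC were unchanged. For called 5mC cytosines 19 of 25 were, and for 5hmC cytosines 14 of 27.

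Called 5mC cytosines at 12 weeks (12) numbered 0 with overdispersion, 7 without both libraries of the shared naming style, and 8 to 26 with 1 library left out. At 4 weeks (0) they numbered 0 to 8 with 1 library left out. Called 5hmC cytosines (0 at both weeks) numbered 6 and 8 with the unweighted difference, 0 to 2 and 1 to 6 with 1 library left out, and 6 at 12 weeks without the shared style. With the replicate number as a block, which pairs libraries by number only, 3 5mC cytosines were called at 4 weeks, and 1 and 1 5hmC cytosines at 4 and 12 weeks.

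In the means that follow, the cytosines were drawn again for each setting from those covered in the libraries used. Mean 5mC (DMM minus control, points) at a coverage of 20 was 0.0673 for all Hox cytosines at 4 weeks. The read-weighted Hoxd difference at 12 weeks was 1.002. Without the shared style Hoxa was −0.875 and Hoxb −1.76 at 12 weeks. With 1 library left out Hoxa at 4 weeks was −0.594 to 0.197, with the opposite sign without control replicate 1, Hoxb −2.71 to −1.16, Hoxc 1.54 to 2.94 and Hoxd 0.950 to 1.98. The 12-week differences kept their sign then, at −1.73 to −1.01 in Hoxa, −2.24 to −1.94 in Hoxb, 1.32 to 1.96 in Hoxc and 1.36 to 1.69 in Hoxd. Mean 5hmC changed sign at a coverage of 20 in Hoxb (−0.0119) and Hoxc (−0.236) at 4 weeks and Hoxa (−0.102) at 12 weeks, with merged strands in Hoxc at 4 weeks (−0.0332), and with negative differences set to 0 in Hoxb at 12 weeks (−0.108). In Hoxc at 4 weeks it was −0.402 without control replicate 1 and −0.000586 without DMM replicate 1 (range −0.402 to 0.253), and at 12 weeks 0.371 to 1.03 with 1 library left out. In the other clusters the range was 0.0121 to 1.23 at 4 weeks and 0.158 to 1.37 at 12 weeks. At 12 weeks the pooled Hox 5hmC difference was 0.820 read-weighted and 0.230 with negatives at 0, and that of Hoxd 0.770 read-weighted. The causes were not tested. Each 5hmC value is a difference of 2 read shares at mean coverages of 20.2 and more.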

Other observations

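By annotation, at 12 weeks, the limb differences of Hoxa went in opposite directions within the cluster. Intron cytosines of Hoxa averaged 24.0% ± 0.150 in control and 19.95% ± 1.25 in DMM (SD, n = 3), while cytosines between genes read 19.4%, 15.0% and 14.6% in control and 23.4%, 22.4% and 20.9% in DMM. Exon cytosines were lower in DMM in Hoxb (9.25% and 6.95%) and higher in Hoxc (14.8% and 17.3%) and Hoxd (11.4% and 14.0%), without overlap of the libraries.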
